A study of Mus musculus with 6 samples.

Results

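The genes described here are 6 well-known targets that the androgen receptor and the glucocorticoid receptor both induce: Fkbp5, Zbtb16, Tsc22d3, Sgk1, Per1 and Klf9. They were picked by symbol for this known property, and all 6 were found among the 24421 gene symbols of the deposited tables. Earlier results of these data were known when the 6 genes and the gene lists below were chosen. Counts set beside the share of all tested genes are therefore descriptive. RNA was sequenced from 4 prostate samples of castrated mice and 2 of intact mice of a prostate cancer model. All 6 samples carried PB-Cre4, a Cre recombinase driven by a probasin promoter active in prostate epithelium, together with the same floxed tumour suppressor alleles, so the deletion is shared by both groups and its effect is not measured here. The sources used here give neither the time from castration nor the age of the mice. No label says that each sample is a different animal, so the p-values rest on a spread between samples that may be technical.

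Androgens and glucocorticoids act through closely related nuclear receptors. Each receptor is held by chaperones in the cytoplasm until a steroid binds, then enters the nucleus and binds DNA as a dimer, and the DNA-binding domains of both recognise the same palindrome of a pair of inverted AGAACA hexamers spaced by any 3 bases. Castration removes the testes, the main source of androgens, while the adrenal glands continue to make glucocorticoids. Genes that answer to both hormones can therefore keep one of their inducers after castration, and the comparison asks how far each of the 6 depended on the testes in these prostates.

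Values are CPM, reads per 1000000 reads counted in genes, divided by a size factor per sample and called rescaled CPM. The libraries held 43679297 to 59170793 reads in genes. Differences are castrated minus intact on the log2(rescaled CPM + 0.5) scale, from limma fitted to all genes, with Benjamini-Hochberg adjustment over the 13898 tested genes and a threshold of 0.05. On the first principal component, with 48.7% of the variance, castrated sample 4 lay between the intact samples and the other castrated samples. Marker genes were read beside the tissue label and do not by themselves prove it. All 12 luminal epithelial markers passed the filter, with summed levels of 8998 to 13362 rescaled CPM in castrated and 12788 to 12891 in intact samples. Of 6 seminal vesicle genes, 0 passed it.

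Of the 6 genes, 4 fell after castration: Zbtb16, Fkbp5, Sgk1 and Tsc22d3. Over all tested genes, limma called 1.27% lower in castrated samples and 1.97% in either direction. By edgeR 4 of the 6 genes were called lower, against 1.07% of all tested genes (1.46% in either direction), and by DESeq2 5 of the 6, against 4.54% lower, 4.76% higher and 9.3% in either direction. At an unadjusted p under 0.05 in limma 5 of the 6 were lower, against 8.06% of all tested genes (15.9% in either direction). Klf9 was lower in every castrated than in every intact sample without passing the test, and Per1 overlapped between the groups. In 5 of the 6 genes the castrated samples all lay below the intact ones, against 13.2% of all tested genes. Zbtb16 passed the filter on low values only through its level in intact samples. In bulk tissue, fewer cells of a type and less RNA per cell cannot be told apart, and this holds for each value below.

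**Figure D1:**
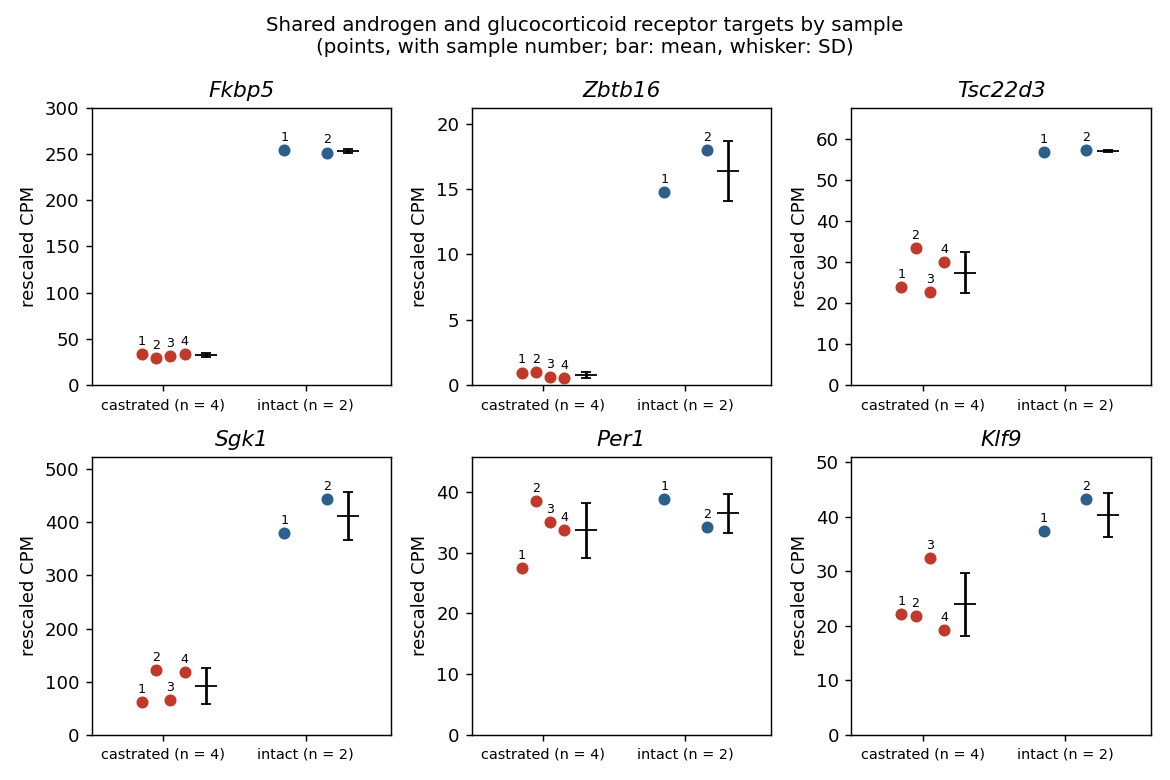
Level of each of the 6 genes in rescaled CPM (vertical axes, from 0) in the 4 castrated samples (red) and the 2 intact samples (blue), with the mean and SD beside the points. Fkbp5 sat between 29.7 and 34.1 in castrated samples, against 251 and 254 in intact samples, while the Per1 values of the groups overlapped.

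Fkbp5 encodes a co-chaperone that binds Hsp90 in steroid receptor complexes and, in the glucocorticoid receptor, lowers hormone binding, so that its induction is a classic short feedback loop. It lies on chromosome 17 (28399094 to 28517527, GRCm38), and no exon of another annotated gene overlaps its exons. It was at 34.0, 29.7, 32 and 34.1 rescaled CPM in castrated samples 1 to 4, against 254 and 251 in intact samples 1 and 2. The values were close together within each group, with a coefficient of variation of 6.42% in castrated and 0.777% in intact samples. The log2 difference was -2.95 (95% interval -3.17 to -2.72), a 7.70-fold fall (limma adjusted p = 0.000141), and the gene ranked 2 by p among all tested genes. It passed the threshold in each of the 20 alternative fits.

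Zbtb16, also known as PLZF, encodes a zinc finger protein with a BTB domain that represses transcription. It lies on chromosome 9 (48654297 to 48836222). It was at 0.986, 1.00, 0.631 and 0.564 rescaled CPM in castrated samples, against 14.8 and 18.0 in intact samples. Behind these values were 35 to 56 reads per castrated library, against 632 and 1031 reads in the intact libraries. Zbtb16 differed by -3.71 on the log2 scale (95% interval -4.30 to -3.13), a 13.1-fold fall (limma adjusted p = 0.00303). The pseudocount limits this fold: the ratio of mean intact to mean castrated level was 20.6, and edgeR, fitted to reads recovered from the CPM steps, gave a log2 difference of -4.37 (adjusted p = 0.00617). Without either intact sample the gene no longer met the filter; kept in by the filter of all 6 samples, it had an adjusted p of 0.0431 without intact sample 1 and 0.0544 without intact sample 2.

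Sgk1 encodes a kinase related to AKT that is named for its induction by serum and glucocorticoids and that keeps the epithelial sodium channel at the cell surface. It lies on chromosome 10 (21882184 to 21999903). It was at 61.1, 123, 65.5 and 119 rescaled CPM in castrated samples 1 to 4, against 380.2 and 443 in intact samples. Castrated samples 2 and 4 were about as high as each other and above samples 1 and 3, and all 4 were far below the intact pair. Sgk1 differed by -2.22 on the log2 scale (95% interval -3.0 to -1.44), a 4.67-fold fall (limma adjusted p = 0.0298). The call was lost without intact sample 1 or 2 (adjusted p = 0.197 and 0.232), with castrated sample 1 or 3 left out (adjusted p = 0.0643 and 0.0815) and with no filter (adjusted p = 0.0584).

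Tsc22d3, also known as GILZ, encodes a leucine zipper protein through which glucocorticoids restrain inflammatory transcription factors. It lies on chromosome X (140539528 to 140600659). It was at 23.9, 33.3, 22.6 and 29.95 rescaled CPM in castrated samples, against 56.8 and 57.3 in intact samples. The castrated samples kept the order seen for Sgk1 in that samples 2 and 4 were above samples 1 and 3. Tsc22d3 differed by -1.06 on the log2 scale (95% interval -1.48 to -0.64), a 2.08-fold fall (limma adjusted p = 0.0415). The call lay close to the threshold: it was lost on the values as deposited (adjusted p = 0.0512), with no trend of variance on the mean (adjusted p = 0.0579), with no filter (adjusted p = 0.0674) and with any sample but castrated sample 4 left out (adjusted p from 0.0586 to 0.266).

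Klf9 encodes a Kruppel-like zinc finger transcription factor that glucocorticoids and thyroid hormone induce. It lies on chromosome 19 (23141226 to 23168134). It was at 22.2, 21.9, 32.5 and 19.2 rescaled CPM in castrated samples, against 37.4 and 43.2 in intact samples. The groups did not overlap, and castrated sample 3 was nearest to the intact pair. The log2 difference was -0.77 with a 95% interval of -1.28 to -0.25 (limma adjusted p = 0.142, edgeR adjusted p = 0.149). Of the 3 tools only DESeq2 put it below the threshold (adjusted p = 0.0346).

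Per1 encodes a repressor of the circadian clock whose promoter glucocorticoids switch on within the daily cycle. It lies on chromosome 11 (69095217 to 69109960). It was at 27.5, 38.5, 35.0 and 33.7 rescaled CPM in castrated samples, against 38.8 and 34.2 in intact samples. The groups overlapped, with castrated sample 1 lowest. The log2 difference was -0.12 with a 95% interval of -0.48 to 0.24 (limma adjusted p = 0.773), so a fall as large as that of Tsc22d3 lay outside the interval.

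Levels were also divided by the kilobases of annotated exon, joined over all transcripts of a gene, whichever of them are expressed. The order of the genes below rests on this length. Sgk1 was the highest of the 6 in both groups, at 18.8 ± 6.78 rescaled CPM per kilobase in castrated samples (SD, n = 4) and 83.9 ± 9.03 in intact samples (SD, n = 2). Fkbp5 was next to lowest in castrated samples at 3.43 ± 0.220, while in intact samples it was next to highest at 26.7 ± 0.208. In castrated samples the levels of Tsc22d3 (5.21 to 7.68), Per1 (4.89 to 6.84) and Klf9 (3.99 to 6.74) overlapped, and those of Fkbp5 (3.13 to 3.60) lay below them. Fkbp5 has the longest annotated exons of the 6 genes, at 9468 bases. Before this division Fkbp5 (29.7 to 34.1 rescaled CPM) overlapped Tsc22d3 (22.6 to 33.3), Per1 (27.5 to 38.5) and Klf9 (19.2 to 32.5) in castrated samples. In intact samples no neighbours in the order overlapped, with Tsc22d3 at 13.1, Klf9 at 8.38, Per1 at 6.48 and Zbtb16 at 3.10 rescaled CPM per kilobase. Zbtb16 was lowest in both groups, at 0.151 in castrated samples.

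Whether one gene fell more than another was examined with the log2 ratio of each of the 15 pairs within each sample. In 14 pairs the ratios of castrated and intact samples did not overlap. Each gene enters several pairs, so the pairs are not independent. The share of such pairs among other genes was not measured, so this count is descriptive. The ratio of Fkbp5 to Per1 averaged -0.05 ± 0.28 in castrated and 2.78 ± 0.12 in intact samples, a difference of -2.83. The ratio of Fkbp5 to Zbtb16 differed by 0.77 and that of Tsc22d3 to Sgk1 by 1.17, so Zbtb16 and Sgk1 were the further down of their pairs. In 11 pairs, these included, the two-sided exact permutation test over samples gave p = 0.0667, the smallest that this design allows (adjusted p = 0.0910 over the 15 pairs), so no pair could pass 0.05. Tsc22d3 and Klf9 overlapped in their ratio, with a difference of -0.29 (exact permutation p = 0.733, adjusted p = 0.733).

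Sequences just upstream of the transcription starts are shown because the 6 genes share a pair of receptors that read the same DNA palindrome. RefSeq promoter sequences (GRCm38.p6) were matched for 5 of the 6 genes, with 13 annotated starts in all, and Zbtb16 was not matched. The 250 bases before each start were searched on both strands for the palindrome (AGAACA, any 3 bases, then TGTTCT), for the single hexamer AGAACA, which the palindrome itself contains on each strand, and for CACGTG, the E-box that clock proteins bind. Capitals mark these matches. The sequences are those 250 bases, 5′ to 3′ on the strand of the gene, for the fifth of 6 Sgk1 starts in genomic order (chr10:21993640-21993889, plus strand), the first of 3 Tsc22d3 starts in the direction of transcription (chrX:140600523-140600772, minus strand), the Fkbp5 start (chr17:28486150-28486399, minus strand) and the first of 2 Per1 starts (chr11:69098699-69098948, plus strand).
Sgk1: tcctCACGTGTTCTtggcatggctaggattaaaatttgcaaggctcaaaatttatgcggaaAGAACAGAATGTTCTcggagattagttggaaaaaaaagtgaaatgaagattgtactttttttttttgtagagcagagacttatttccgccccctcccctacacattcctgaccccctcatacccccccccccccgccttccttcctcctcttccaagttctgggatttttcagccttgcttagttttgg
Tsc22d3: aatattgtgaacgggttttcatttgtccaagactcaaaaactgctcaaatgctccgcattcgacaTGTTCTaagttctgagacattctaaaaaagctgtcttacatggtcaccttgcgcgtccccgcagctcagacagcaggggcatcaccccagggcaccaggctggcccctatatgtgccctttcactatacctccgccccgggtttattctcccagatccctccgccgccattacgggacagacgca
Fkbp5: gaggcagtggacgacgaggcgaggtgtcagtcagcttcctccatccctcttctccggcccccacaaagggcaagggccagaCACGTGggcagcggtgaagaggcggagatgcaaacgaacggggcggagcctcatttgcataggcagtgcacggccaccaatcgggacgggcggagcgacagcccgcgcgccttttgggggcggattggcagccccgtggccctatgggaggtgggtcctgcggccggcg
Per1: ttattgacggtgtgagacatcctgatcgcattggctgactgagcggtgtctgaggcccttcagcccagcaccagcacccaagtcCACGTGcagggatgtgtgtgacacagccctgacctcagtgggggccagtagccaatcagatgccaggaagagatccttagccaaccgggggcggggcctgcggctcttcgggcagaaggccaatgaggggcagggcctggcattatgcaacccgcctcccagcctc

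Sgk1 was the one gene of the 5 with a full palindrome in these windows, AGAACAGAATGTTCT, which begins 189 bases before the fifth start and 965 bases before the sixth. The palindrome occurred in 3 of 32851 promoter windows of the same length, or 0.00913%. The other 2 windows belonged to Acnat2, which had 2 reads in castrated and 0 in intact samples, and to a numbered gene model whose symbol was not matched in the tables. The same Sgk1 window held another hexamer, TGTTCT, that overlaps an E-box, and 2 other Sgk1 windows and the Tsc22d3 window shown held a hexamer each, while 16.1% of all windows held at least 1. The Fkbp5 and Per1 windows shown held an E-box, as did 6.02% of all windows, and the Klf9 window held none of these motifs. A match describes letters only, and reads per start were not measured here.

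Neither corticosteroid receptor gene was lower after castration. Nr3c1, the glucocorticoid receptor gene, was at 49.1, 52.5, 62.3 and 62.9 rescaled CPM in castrated samples, against 34.9 and 33.3 in intact samples. Its log2 difference of 0.72 (95% interval 0.40 to 1.03) did not pass the threshold (limma adjusted p = 0.0555). It passed in 3 of 20 alternative fits, among them limma without castrated sample 4 (adjusted p = 0.0347) and DESeq2 (adjusted p = 0.000235). Nr3c2 encodes the mineralocorticoid receptor, which also binds glucocorticoids. It was at 28.8 to 42.4 in castrated and 14.9 to 19.4 in intact samples, a log2 difference of 1.02 (limma adjusted p = 0.0814). Nr3c2 passed in 3 of 20 alternative fits, among them DESeq2 (adjusted p = 0.00105) and limma without castrated sample 4 (adjusted p = 0.0336). An antisense gene covers 3.82% of the Nr3c2 exon bases. Both genes were higher in each castrated than in each intact sample, as were 13.4% of all tested genes.

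Access of glucocorticoids to their receptor is set by a pair of enzymes that convert the hormone between active and inactive forms. Hsd11b2, which inactivates glucocorticoids, was at 314, 392.02, 365 and 167 rescaled CPM in castrated samples, against 77.8 and 101 in intact samples. The groups did not overlap, with castrated sample 4 the lowest of its group. Of all tested genes, 13.4% were higher in each castrated than in each intact sample. Hsd11b2 differed by 1.73 on the log2 scale (95% interval 0.90 to 2.55, limma adjusted p = 0.0672). It passed the threshold in 4 of 20 alternative fits, among them DESeq2 (adjusted p = 5.58e-06) and limma without castrated sample 4 (adjusted p = 0.00295). Hsd11b1, which runs the reaction towards the active hormone, was at 15.1 ± 2.08 in castrated samples (SD, n = 4) and 14.9 ± 1.91 in intact samples (SD, n = 2), with a log2 difference of 0.01 (95% interval -0.39 to 0.42, limma adjusted p = 0.984). Fkbp4, a relative of Fkbp5 that promotes receptor transport, was at 285 ± 21.3 in castrated and 290 ± 14.4 in intact samples, with a log2 difference of -0.03 (95% interval -0.28 to 0.23, limma adjusted p = 0.944). Across the 16 receptor, chaperone and coregulator genes of this list limma called 0 (4 at an unadjusted p under 0.05, edgeR 0, DESeq2 4). Over all tested genes, 15.9% had such a p in limma, and DESeq2 called 9.3% in either direction. The list had a median log2 difference of 0.06 against 0.00 for all tested genes.

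**Figure D2:**
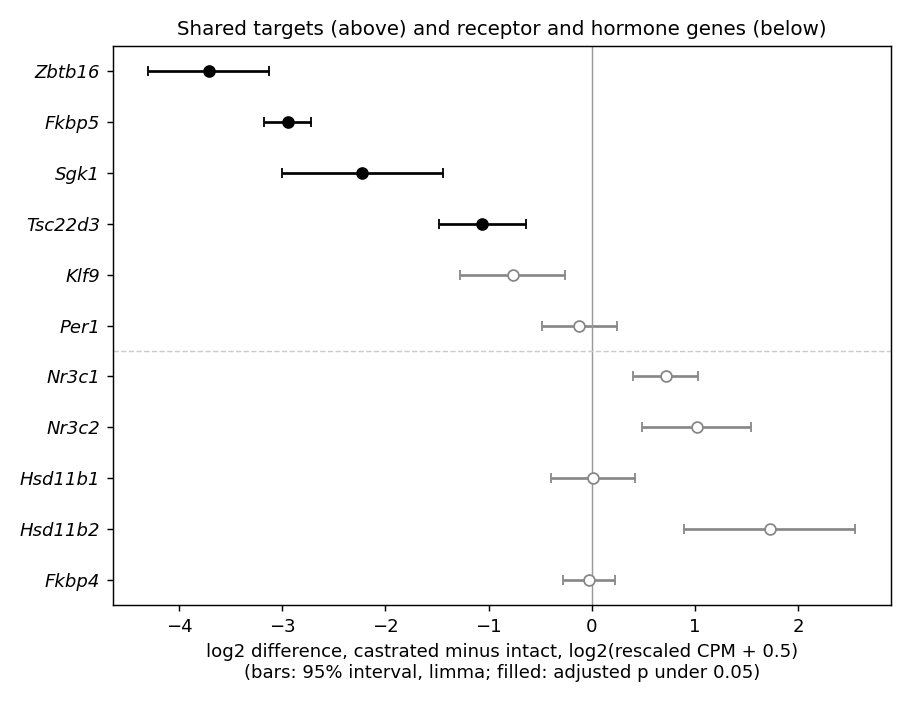
Log2 difference, castrated minus intact, with its 95% interval (horizontal axis) for the 6 shared targets above the dashed line and for 5 receptor and hormone genes below it, with filled points past an adjusted p of 0.05 in limma. The intervals of the called targets run from -4.30 to -0.64, and that of Per1 spans 0.

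Of 34 other glucocorticoid response genes tested, limma called 8 lower and 0 higher, beside 1.27% of all tested genes called lower and 0.698% called higher. The list's median log2 difference was -0.26. Mt2, a metal-binding metallothionein, was at 39.2 to 55.3 rescaled CPM in castrated samples, against 246 and 163 in intact samples, a 4.30-fold fall (limma adjusted p = 0.00927). An antisense gene covers 73.5% of the Mt2 exon bases, and the sources used here do not say if reads were counted by strand. Arl4d, a small GTPase gene, was at 6.22 to 10.3 in castrated samples against 29.6 and 31.4 in intact samples, a 3.48-fold fall (limma adjusted p = 0.0167). Hif3a, a hypoxia factor gene, was at 0.251 to 0.912 in castrated samples and 5.63 and 4.87 in intact samples, with 129 and 520 reads in the groups, and fell 5.52-fold (limma adjusted p = 0.0191). The arrestin-related Arrdc2 fell 1.97-fold and the transcriptional coregulator gene Cited2 2.02-fold (limma adjusted p = 0.0243 and 0.0271). The other 3 called genes, named here after their values were seen, were Nfkbia, Lpin1 and Fam107a. Hif3a and Fam107a, like Zbtb16, passed the filter on low values only through their level in intact samples. DESeq2 called 11 lower and 2 higher, beside 4.54% and 4.76% of all tested genes. The count of 8 was 7 in edgeR, 0 without either intact sample and 1 to 9 without 1 castrated sample.

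Of 29 androgen response genes of the prostate tested, limma called 5 lower and 0 higher, beside 1.27% of all tested genes called lower and 0.698% called higher, with a median log2 difference of -0.24. DESeq2 called 6 lower and 1 higher, beside 4.54% and 4.76% of all tested genes. Tmprss2, a membrane serine protease gene, was at 347, 388, 384 and 230 rescaled CPM in castrated samples, against 765 and 843 in intact samples, a 2.43-fold fall (limma adjusted p = 0.0496, edgeR adjusted p = 0.05). Tubb2a, a tubulin gene with close paralogs that may share reads, fell 1.66-fold (limma adjusted p = 0.0395). Bmpr1b, a bone morphogenetic protein receptor gene, had 205 reads in castrated and 3226 in intact samples, and Msmb, a secretory product gene, had 0 and 837, so that it too passed the filter only through intact samples. The count of 5 was 3 in edgeR, 1 with a CPM of at least 1 required in all samples, 0 without either intact sample and 2 to 6 without 1 castrated sample.

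**Figure D3:**
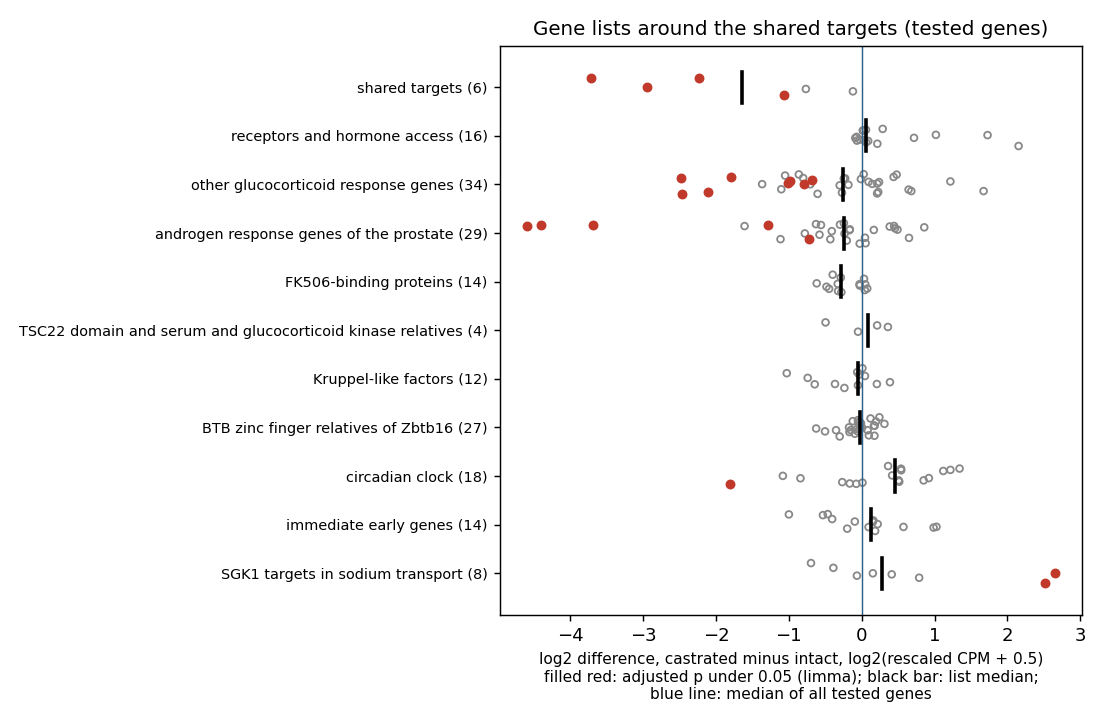
Log2 difference, castrated minus intact, of each tested gene (points) in the 6 shared targets and 10 lists around them (rows, with the number tested), with calls in limma filled. The median of the shared targets was -1.64, against medians from -0.28 to 0.46 for the 10 lists.

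Relatives of the 6 genes by protein family were not called in either direction by limma or edgeR, and DESeq2 called a few. Over all tested genes, DESeq2 called 9.3% in either direction, and 15.9% had an unadjusted p under 0.05 in limma. Of 14 tested FK506-binding protein genes other than Fkbp5, 0 passed the threshold in limma (4 at an unadjusted p under 0.05, edgeR 0, DESeq2 2), with log2 differences from -0.62 to 0.08. Those with the smallest p were Fkbp14 at a log2 difference of -0.62 (limma adjusted p = 0.135) and Fkbp1a at -0.32 (limma adjusted p = 0.146). Of 12 tested Kruppel-like factor genes other than Klf9, 0 passed (3 at an unadjusted p under 0.05, edgeR 0, DESeq2 1), with log2 differences from -1.03 for Klf15 (limma adjusted p = 0.331), named here after its value was seen, to 0.39 for Klf4. Those with the smallest p were Klf4 and Klf13, the second at -0.37 (limma adjusted p = 0.151 and 0.264). Of 27 relatives of Zbtb16, 0 passed (2 at an unadjusted p under 0.05, edgeR 0, DESeq2 1), and the log2 differences ran from -0.62 for Zbtb8a, whose exons overlap an antisense gene over 11.4% of their bases, to 0.31 for Zbtb4. Of 4 tested relatives of Tsc22d3 and Sgk1, 0 passed (1 at an unadjusted p under 0.05, edgeR 0, DESeq2 0), with Sgk3 at -0.50 and Tsc22d2 at 0.36 (limma adjusted p = 0.306 and 0.568).

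Genes of sodium transport, which SGK1 regulates at the protein level, included 2 of 8 tested that limma called higher and 0 called lower, beside 0.698% and 1.27% of all tested genes. In edgeR 1 was called higher, beside 0.389% of all tested genes. In DESeq2 3 were called higher and 1 lower, beside 4.76% and 4.54% of all tested genes. Scnn1b, a subunit of the epithelial sodium channel, was at 197, 188, 206 and 83.7 rescaled CPM in castrated samples, against 21.8 and 28.2 in intact samples, a 6.31-fold rise (limma adjusted p = 0.0269). Scnn1g, another subunit, was at 23.7, 44.5, 24.6 and 27.95 in castrated samples, against 2.73 and 7.88 in intact samples, a 5.71-fold rise (limma adjusted p = 0.0429, edgeR adjusted p = 0.0783). The groups did not overlap for either gene, and 13.4% of all tested genes were likewise higher in each castrated sample. With 1 sample left out, each kept its call only without castrated sample 4, and the log2 difference of Scnn1g was 1.82 without intact sample 1 and 3.20 without intact sample 2. RNA was measured, not channel activity.

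Of 18 clock genes around Per1, limma called 1 lower and 0 higher, beside 1.27% and 0.698% of all tested genes, with 9 at an unadjusted p under 0.05, against 15.9% of all tested genes, and a median log2 difference of 0.46. In edgeR 1 was called lower, beside 1.07% of all tested genes. In DESeq2 2 were called lower and 5 higher, beside 4.54% and 4.76% of all tested genes. Nfil3, a repressor of clock output genes, was at 15.6, 17.3, 18.2 and 16.1 rescaled CPM in castrated samples, against 64.3 and 55.5 in intact samples, a 3.49-fold fall (limma adjusted p = 0.00315), and its call was lost without intact sample 1 or 2 (log2 difference -1.70 and -1.91, adjusted p = 0.0942 and 0.0813). With the genes kept by the filter of all 6 samples, these adjusted p were 0.0568 and 0.0408. Per2, the partner of Per1 in the clock, was at 28.8, 38.1, 23.8 and 40.5 in castrated samples, against 10.6 and 17.2 in intact samples, a log2 difference of 1.22 that did not pass (limma adjusted p = 0.0915). In 8 of the 18 genes every castrated sample was above both intact samples, against 13.4% of all tested genes. The sources used here do not give the time of day at which tissue was taken. Of 14 immediate early genes, which respond to acute stimulation, 0 passed in limma (4 at an unadjusted p under 0.05, edgeR 0, DESeq2 4). Over all tested genes, 15.9% had such a p in limma, and DESeq2 called 9.3% in either direction. The immediate early genes with the smallest p were Nr4a2 at 0.99 and Egr3 at 1.03 (limma adjusted p = 0.0621 and 0.102). The other end of the list was Fosb at a log2 difference of -0.999 (limma adjusted p = 0.143), named here after its value was seen.

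Among the castrated samples the 6 genes did not share an order. Sgk1 and Tsc22d3 were higher in samples 2 and 4 than in samples 1 and 3, with Sgk1 spanning a ratio of 2.01 from lowest to highest. Fkbp5 spanned a ratio of 1.15 and was lowest in sample 2, and Klf9 was highest in sample 3. The 12 basal epithelial markers, of which limma called 1 lower and 0 higher (edgeR 1, DESeq2 3 in all) and 0 were at 0, had summed levels of 1193, 4396, 1504 and 3673 rescaled CPM in castrated samples 1 to 4, against 4691 and 4934 in intact samples, so samples 2 and 4 were above samples 1 and 3 here too. Itga6, Itgb4 and Dst did not keep this order, being lower in sample 2 than in sample 3, while the other basal markers did. Over all tested genes, limma called 1.27% lower, and edgeR called 1.46% and DESeq2 9.3% in either direction. The summed endothelial markers (119, 121, 116 and 202 in castrated samples 1 to 4) also had samples 2 and 4 above samples 1 and 3. So did those of macrophages (1015, 1083, 976 and 1463) and of T and NK cells (39.2, 41.2, 26.3 and 43.7). Luminal markers had the reverse order (13362, 10819, 11948 and 8998), as did those of adipocytes and skeletal muscle. The part of any of these cells in the levels of Sgk1 and Tsc22d3 was not tested.

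**Figure D4:**
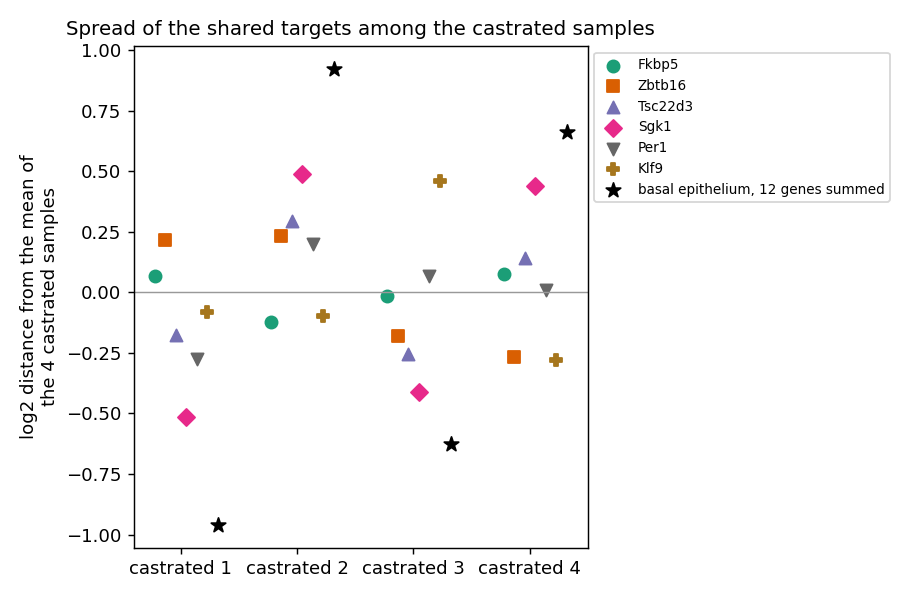
Log2 distance of each of the 6 genes (coloured symbols) and of the summed level of 12 basal epithelial markers (stars) from the mean of the 4 castrated samples (vertical axis), by castrated sample. Sgk1 lay at -0.51 and -0.41 in samples 1 and 3 and at 0.49 and 0.44 in samples 2 and 4.

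Markers of some other cell types differed between the groups, and those of others overlapped. Over all tested genes, limma called 0.698% higher and 1.27% lower, and edgeR 0.389% and 1.07%. DESeq2 called 4.76% higher and 4.54% lower, or 9.3% in either direction. In limma 15.9% of all tested genes had an unadjusted p under 0.05. The 8 neutrophil markers, of which 4 rose in limma, 2 in edgeR and 8 in DESeq2, and 0 were at 0, had summed levels of 244 to 426 rescaled CPM in castrated and 42.3 to 91.6 in intact samples. All 8 were higher in each castrated than in each intact sample, against 13.4% of all tested genes. The 10 smooth muscle markers, of which limma and edgeR called 0 each but DESeq2 called 7, and of which 7 had an unadjusted p under 0.05 in limma, had summed levels of 355 to 562 in castrated and 280.4 to 288 in intact samples. The 9 T and NK cell markers matched (26.3 to 43.7 in castrated, 38.1 to 56.7 in intact samples) and the 10 macrophage markers (976 to 1463 and 1074 to 1268) overlapped between the groups. Of 10 fibroblast markers, limma called 1 lower, and edgeR and DESeq2 called 1 each. Their log2 differences were negative for 7 and positive for 3. Their summed levels were 1281 to 2429 in castrated and 2458 to 2638 in intact samples. The part of these cells in the levels of the 6 genes was not tested.

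For each of the 6 genes the 3 most similar patterns over the 6 samples were named, by the Euclidean distance between centred log2 profiles among 11144 genes with a mean of at least 5 rescaled CPM. Nearest to Fkbp5 were Dnase1l2, a deoxyribonuclease gene at a distance of 0.41, Sult5a1, a sulfotransferase gene at 0.66, and Alox15, a lipoxygenase gene at 0.68. Dnase1l2 was at 8.97 to 11.03 rescaled CPM in castrated samples and at 77.7 and 100.2 in intact samples. It was also nearest to Zbtb16, at 0.99, followed by Fkbp5 at 1.06. Nearest to Sgk1 was Ctla2a at 0.47, a gene with a close paralog that may share reads. The receptor gene Adgrg2 at 0.49 and the collagen VII gene Col7a1 at 0.57 followed. Each was higher in castrated samples 2 and 4 than in samples 1 and 3, an order that choosing by likeness to Sgk1 favours. Nearest to Tsc22d3 were Eva1a at 0.28, Arrdc2 at 0.30 and the galactosyltransferase gene B4galt1 at 0.30. Nearest to Per1 were the TGF-beta inhibitor gene Smad7 at 0.086, Colgalt1 at 0.14 and B3galnt2 at 0.15, and nearest to Klf9 were Cnnm4 at 0.27, the iron transporter gene Slc11a2 at 0.27 and the phosphatase gene Dusp8 at 0.31. Antisense genes cover 11.4% of the exon bases of Colgalt1, 9.20% of those of B3galnt2 and 6.33% of those of Slc11a2.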

How the data were processed

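RNA was sequenced from 4 prostate samples of castrated mice and 2 of intact mice. The authors deposited 1 table of CPM per sample; each column sums to 1000000 with no further scaling between samples. Per the submitters' processing notes, TopHat2, HTSeq and edgeR were used on mm10; their versions, settings and use of strand are not given in the sources used here. In each sample every value (100%) equalled a whole number of reads, to a relative tolerance of 1e-06, so reads were recovered, 43679297 to 59170793 per sample. A count of 0 allows up to 3 reads, or 0.0507 to 0.0687 CPM; such floors cover counting error only. Chi-square per degree of freedom between any 2 libraries was at least 55.5, far above sampling noise.

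Each sample's CPM were then scaled by a median-of-ratios size factor (0.981 to 1.05). A gene was tested if 2 or more samples had a CPM of 1 or more; 13898 genes were, with limma 3.58.1 in R 4.3.3 (two-sided, moderated, with a mean-variance trend, log2(rescaled CPM + 0.5)). This scale understates changes of weakly expressed genes. Exact permutation tests over samples compared log2 ratios of gene pairs. The 18 alternatives included edgeR 4.0.16 (quasi-likelihood test) and DESeq2 1.42.0, both run on recovered reads, and 2 were added after seeing the data. Simulated counts with 200 changed genes were used to test the code.

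The 6 genes, the lists and the rule for naming genes were chosen with earlier results of these data known. The rule names the 6 genes, 6 receptor and hormone genes, up to 5 called genes per list (2 with the smallest p where fewer are called) and 3 most similar patterns per gene. Some genes the rule selects, and the deleted gene, are not reported here. Positions, exon lengths and exon overlaps are from GENCODE M21 (GRCm38, the assembly that mm10 names); promoter sequences are from RefSeq (GRCm38.p6).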

Additional observations from a re-analysis of the deposited data

Results flagged for a closer look

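Of 49 genes named here or by the rule, 2 had a castrated sample set apart from the other 3 by Dixon's criterion, which chance meets in about 1 of 20 groups. Scnn1b was at 83.7 rescaled CPM in castrated sample 4, against 188 to 206 in the other castrated samples. B3galnt2 was at 31.5 in castrated sample 1, against 37.8 to 38.3 in the others.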

How the results depend on the processing

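Each of the 6 genes kept its direction in every alternative fit in which it was tested, 20 fits each and 17 for Zbtb16. Fkbp5 was called in 20 of 20 fits, Zbtb16 in 16 of 17, Sgk1 in 13, Tsc22d3 in 9, Klf9 in 1 and Per1 in 0. The number of the 6 called lower was 4 of 6, 2 with no filter and 1 to 4 with 1 sample left out. Tsc22d3 was no longer called at a log2 difference of -1.06 with no filter or no trend, -1.01 on the values as deposited and -1.16 to -0.97 with 1 sample left out (-1.07 without intact sample 1 and -1.06 without intact sample 2). Sgk1 was no longer called at -2.22 with no filter, nor in 4 of the 6 fits with 1 sample left out, where it ran from -2.39 to -2.06 (-2.34 without intact sample 1 and -2.12 without intact sample 2). Zbtb16 ran from -3.86 to -3.58 with 1 sample left out, 2 of these fits with the filter of all 6 samples. Klf9 was called in DESeq2 at -0.75. Over all genes, limma called 274 genes, 170 with no filter, 954 with array weights, 1293 in DESeq2 and 1 to 1052 with 1 sample left out (19 and 19 without intact sample 1 or 2 under the filter of all 6 samples). The replicate numbers were not shown to pair samples: deviations from the group means of same-numbered samples correlated at 0.075 and 0.23 in 2 pairs. With the replicate number as a block, castrated samples 3 and 4 had no intact sample of the same number. The difference in that fit therefore rested on samples 1 and 2 of each group. In it 417 genes were called and Tsc22d3 lost its call (log2 difference -1.002, limma adjusted p = 0.0576). Genes near 0 changed sign. Hsd11b1 was at -0.0007 with quantile normalization, -0.039 with array weights, -0.086 with the block and -0.11 to 0.14 with 1 sample left out. Fkbp4 was at 0.021, 0.027 and 0.016 on deposited values, with quantile normalization and with the block, and -0.080 to 0.022 with 1 sample left out. Colgalt1 was at 0.0027 on deposited values, 0.025 with quantile normalization, 0.0075 with array weights and -0.14 to 0.054 with 1 sample left out (0.043 without intact sample 1). Apart from the loss of samples or added genes to test, the causes of these changes were not tested. With 2 intact samples, precision rests on few libraries.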
